A study of Homo sapiens with 16 samples.

Results

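Integrins are the receptors by which cells hold on to the extracellular matrix, and laminin-332 is a basement membrane protein that epithelial cells lay down and bind. The genes described here are 7 integrin subunit genes (ITGA2, ITGA3, ITGA6, ITGAV, ITGB1, ITGB4 and ITGB6) and LAMA3 and LAMB3, which encode laminin-332 chains. They were picked by gene symbol: 8 of the 9 names equal the symbol of 1 of the 24293 deposited loci. LAMB3 is listed only jointly with the microRNA gene MIR4260, so its locus is given beside the other 8 and is not part of their counts. All 9 loci were among the 11647 whose mean over all libraries was at least 1 FPKM (fragments scaled by transcript length and library size) and which were tested.

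The libraries were made from polyA RNA of the established line HCC4006, derived from a non-small cell lung cancer with an activating EGFR mutation. Every culture was plated at low density, left untreated for 24 hours, treated for another 24 hours, detached with trypsin and frozen. The 4 groups received DMSO (the vehicle), gefitinib at 100 nM, AZ1366 at 100 nM, or both compounds at 100 nM each, and each group held 4 libraries. Gefitinib inhibits the EGFR kinase and AZ1366 inhibits the tankyrases, and the vehicle libraries are the only untreated reference. A single cell line was used, and the labels leave unsaid if a group's 4 libraries are from separate cultures, so p-values describe only how these libraries spread, which may be technical.

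An integrin is a pair of an alpha and a beta subunit, and the pair decides the ligand. ITGB1 encodes the shared partner of many alpha subunits. With ITGA2 it forms a collagen receptor and with ITGA3 a laminin receptor, while ITGA6 with ITGB4 forms the laminin receptor of hemidesmosomes, the plaques that tie the basal face of an epithelial cell to its basement membrane through keratin filaments. ITGAV pairs with several beta subunits, and ITGB6, which has no other partner, makes with it an epithelial receptor for fibronectin, tenascin-C and latent TGF-beta. Laminin-332 contains the products of LAMA3 and LAMB3 and is a main ligand of the ITGA3 and ITGA6 receptors in skin and airway epithelium.

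RefSeq windows of 250 bases before an annotated start (GRCh38.p14) were available for 7 of the 9 genes. Of these windows 3 are shown, from genes that moved in opposite directions under treatment. LAMA3 and LAMB3 were lower with each compound, and ITGB6 was higher. Each window is written 5′ to 3′ on the strand of the gene and ends at the base before the start. Capitals mark matches, on either strand, to the AP-1 motif TGANTCA, the TEAD motif GGAATG and the GC box GGGCGG.
LAMA3 (chr18:23872770-23873019, plus strand): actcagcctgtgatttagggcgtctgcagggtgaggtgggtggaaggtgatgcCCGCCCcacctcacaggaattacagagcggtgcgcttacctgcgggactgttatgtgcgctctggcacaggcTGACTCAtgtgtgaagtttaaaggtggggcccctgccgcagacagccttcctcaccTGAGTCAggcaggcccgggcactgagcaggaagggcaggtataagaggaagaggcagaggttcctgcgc
LAMB3 (chr1:209651375-209651624, minus strand, the most downstream of 3 starts): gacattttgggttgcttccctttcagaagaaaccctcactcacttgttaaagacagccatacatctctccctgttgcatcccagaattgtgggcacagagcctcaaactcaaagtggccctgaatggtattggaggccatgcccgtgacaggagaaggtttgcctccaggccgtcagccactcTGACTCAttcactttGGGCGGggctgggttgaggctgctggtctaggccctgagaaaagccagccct
ITGB6 (chr2:160200273-160200522, minus strand): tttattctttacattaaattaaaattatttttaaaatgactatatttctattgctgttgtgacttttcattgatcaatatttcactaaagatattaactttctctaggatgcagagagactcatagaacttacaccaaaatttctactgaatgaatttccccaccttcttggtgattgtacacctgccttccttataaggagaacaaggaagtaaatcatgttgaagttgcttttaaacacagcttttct

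The LAMA3 window held 2 AP-1 matches, beginning at -125 and -69 from the start, and 1 GC box at -197. The printed LAMB3 window held 1 AP-1 match at -67 with a GC box at -52. The other 2 LAMB3 windows overlap each other and hold the same single GC box (at -88 and -184 from their starts) and no AP-1 match. No letters of the 3 motifs were in the ITGB6 window or in the 2 ITGAV windows. ITGA2 had 4 GC boxes, ITGA6 had 3 in 1 of its 2 windows, and ITGB1 had 3 GC boxes and 1 TEAD match (at -182) in 1 of its 2 windows. No window of ITGA2, ITGA6 or ITGB1, which also fell with gefitinib, held an AP-1 match. The printed LAMA3 and LAMB3 windows are thus the only available ones, of genes that fell, with an AP-1 match. They are not typical of those genes. Over all 35116 windows of this length, 6.57% held an AP-1 match and 0.402% held more than 1, 11.9% held a TEAD match and 42.6% a GC box. The motifs do not overlap one another in the printed windows. These are matches of letters, the deposited value of a gene covers its whole locus, and which start the transcripts used was not analysed here.

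Summed FPKM per library ran from 433357 to 478179. The number of reads is not given in the sources used here, so depth is unknown and counting error cannot be given. On the first principal component (71.8% of the variance) AZ1366 replicate 1 scored -19.6, toward the vehicle libraries, and the other AZ1366 libraries scored from -6.5 to -3.1. All 6 epithelial markers (EPCAM, CDH1 and 4 keratins) were abundant, with summed FPKM of 5200 to 5920 in vehicle, 4370 to 4740 with gefitinib, 3670 to 4920 with AZ1366 and 3570 to 3960 with both. Summed FPKM of 5 leukocyte markers ran from 0.457 to 1.04 over all libraries. Those of 4 endothelial markers were 0.717 to 0.818 in vehicle, 0.981 to 1.36 with AZ1366, 2.25 to 2.69 with gefitinib and 3.57 to 3.94 with both, and only KDR reached the filter (called higher in each treated group). Those of 6 fibroblast markers were 2.27 to 2.66, 1.95 to 2.54, 3.72 to 3.93 and 3.23 to 3.66 in the same order, with only COL1A1 tested, which was not called. None of these markers was at 0 in all libraries. The markers of a list did not all move with its sum. EPCAM went from 229 FPKM with vehicle to 251 with gefitinib, 258 with AZ1366 and 292 with both. Of the 6 epithelial markers 1 was called higher in each of these comparisons, and 3, 3 and 4 lower. Over all tested loci 36.9%, 39.8% and 49.4% were called lower. PECAM1, an endothelial marker, went from 0.0890 FPKM with vehicle to 0.0504 with gefitinib. The epithelial, endothelial and fibroblast sums move with results below, and their part in them was not tested. FPKM are relative to each library, so fewer cells with a transcript and less of it per cell cannot be told apart.

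In vehicle, ITGB1 was the most abundant of the 8 genes at 622 ± 7.03 FPKM (SD, n = 4), above 99.1% of tested loci. ITGA3 (152 ± 17.5) and ITGA6 (137 ± 2.54) came next with overlapping ranges, followed by ITGA2 (116 ± 1.43) and ITGB4 (62.7 ± 9.09). LAMA3 (35.9 ± 2.83), ITGB6 (31.5 ± 1.47) and ITGAV (27.4 ± 0.878) were the lowest, with ranges that did not overlap. The LAMB3 locus, at 438 ± 52.8 FPKM, lay above 98.8% of tested loci. With both compounds the order was different. ITGB6 was then second after ITGB1, ITGA6 had gone from the third place to the sixth, and LAMA3 was last. The ranges of ITGA2 and ITGA3, of ITGA3 and ITGAV, and of ITGAV and ITGA6 overlapped in that group, so those neighbours are not ordered beyond their spread.

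**Figure D1:**
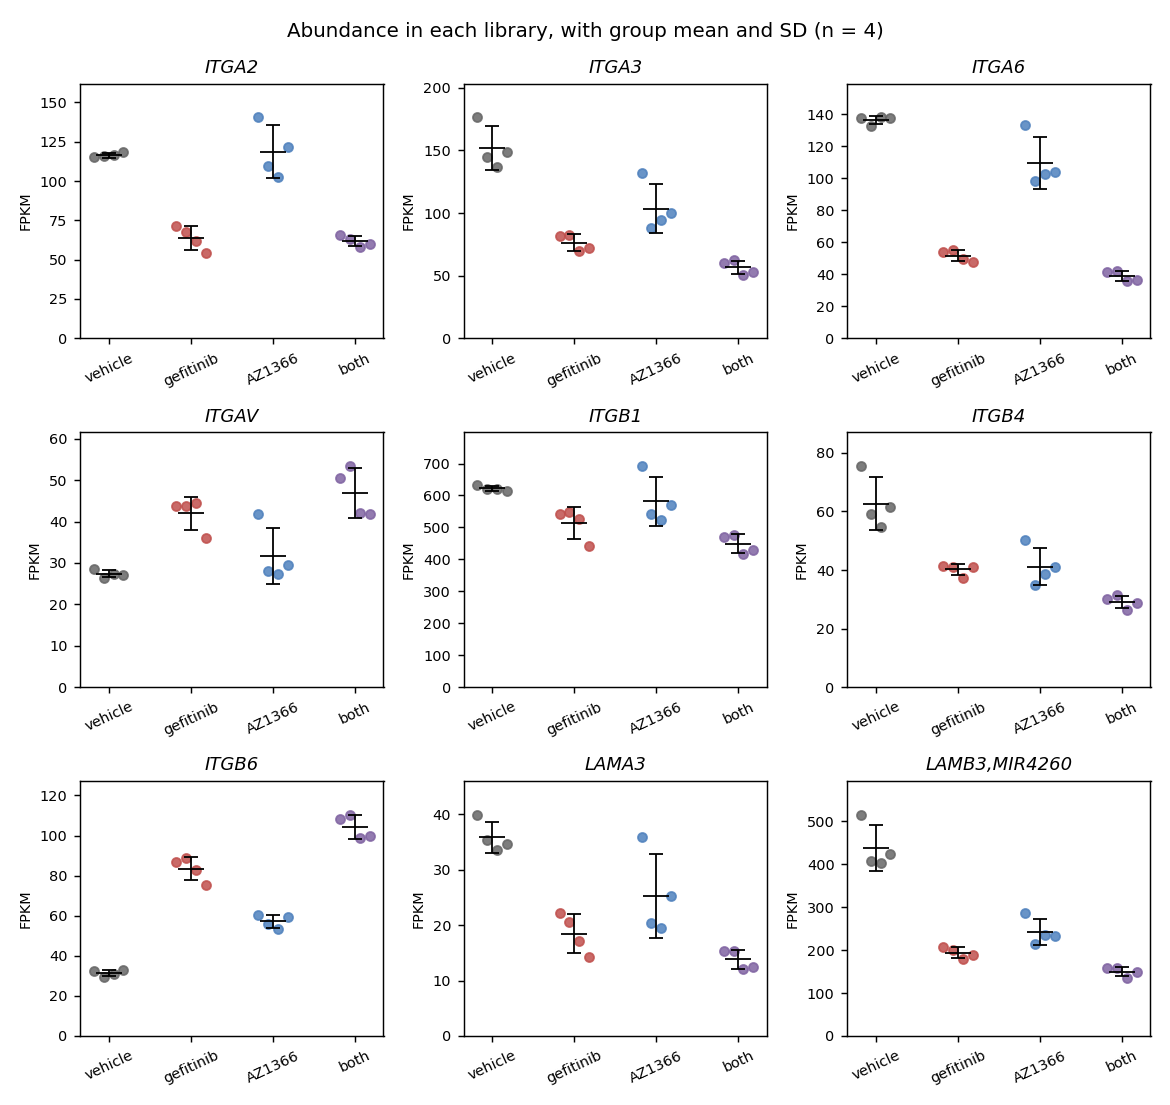
FPKM of the 9 loci in each library (points, replicates 1 to 4 from left to right), with the group mean and SD (bars, n = 4), for vehicle, gefitinib, AZ1366 and both compounds. ITGB6 is separated between all groups and rises from about 31 FPKM with vehicle to about 104 with both, while ITGA6, ITGA3, LAMA3 and the LAMB3 locus are lowest with both.

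Gefitinib changed all 8 genes: 6 fell and 2, ITGB6 and ITGAV, rose. The call is an adjusted p under 0.05, and with it 64.6% of tested loci were called in this comparison, 27.7% higher and 36.9% lower. The median change of the 8 was -0.74 against -0.056 over all tested loci, in log2(FPKM + 1), the scale of every change given here. With AZ1366 alone 4 fell, 1 rose and 3 were not called, where 58.4% of tested loci were called (18.6% higher and 39.8% lower). The median change with AZ1366 was -0.22 for the 8 genes and -0.10 over all tested loci. Median-ratio scaling moves the all-locus median of the AZ1366 comparison by 0.105 and its calls from 2168 higher and 4633 lower to 3540 and 3534, so AZ1366 changes are read relative to that shift. Both compounds together gave 6 falls and 2 rises, with 79.3% of tested loci called (29.9% higher and 49.4% lower), and medians of -0.99 for the 8 genes and -0.15 over all loci.

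**Figure D2:**
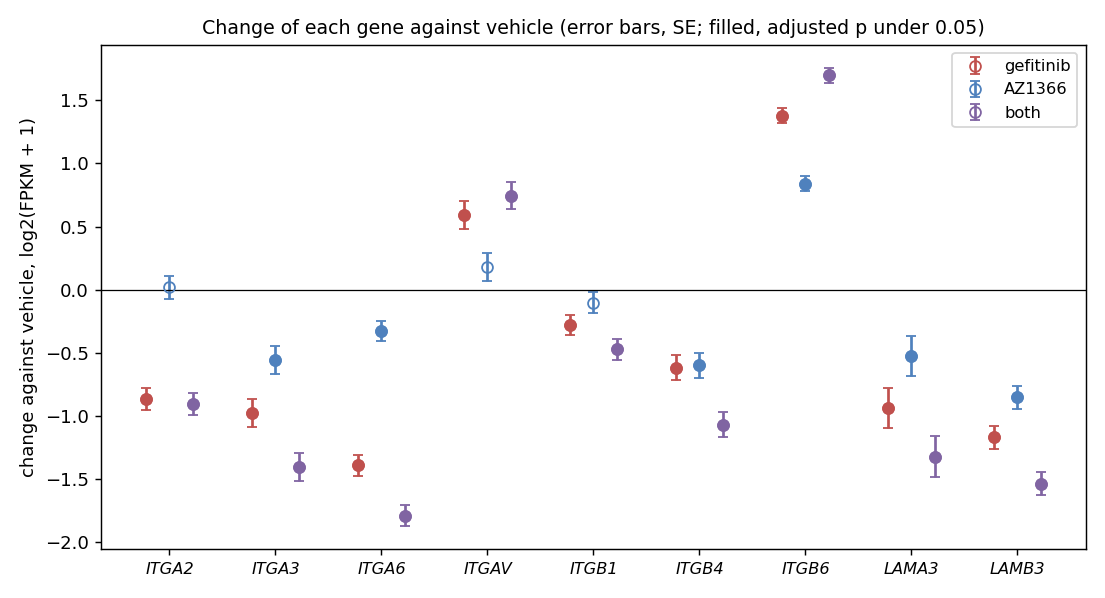
Change of each gene against vehicle in log2(FPKM + 1), for gefitinib, AZ1366 and both compounds, with bars of 1 SE and filled points where the adjusted p was under 0.05. ITGB6 and ITGAV lie above 0 and the other 7 loci below it for gefitinib and for both compounds, and the points not called are ITGA2, ITGAV and ITGB1 with AZ1366.

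LAMA3 and the LAMB3 locus were lower in every treated group. LAMA3, which encodes the alpha chain that carries the integrin-binding end, measured 40.0, 35.4, 33.6 and 34.6 FPKM in the vehicle libraries and 22.2, 20.5, 17.1 and 14.2 with gefitinib. It measured 36.0, 20.4, 19.5 and 25.2 with AZ1366 and 15.3, 15.3, 12.2 and 12.5 with both. Every gefitinib and combination library lay below every vehicle library, and AZ1366 replicate 1 was the only AZ1366 library inside the vehicle range. LAMA3 (hg19 chromosome 18, 21269562 to 21535029) changed by -0.94 ± 0.16 with gefitinib (SE, adjusted p = 5.1e-05), by -0.53 ± 0.16 with AZ1366 (adjusted p = 0.00826) and by -1.32 ± 0.16 with both (adjusted p = 4.65e-07).

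LAMB3 encodes the beta chain. Its locus (chromosome 1, 209788218 to 209825820) measured 516, 408, 404 and 424 FPKM with vehicle and 207, 201, 179 and 188 with gefitinib. With AZ1366 it measured 287, 214, 236 and 233, and with both 158, 159, 134 and 148. No 2 of these groups overlapped, and vehicle replicate 1 and AZ1366 replicate 1 were the highest of their groups. The changes were -1.17 ± 0.091 with gefitinib (adjusted p = 6.03e-09), -0.85 ± 0.091 with AZ1366 (adjusted p = 2.06e-06) and -1.54 ± 0.091 with both (adjusted p = 5.76e-11).

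Of the laminin receptor genes, ITGA6 fell most with gefitinib and with both compounds. With vehicle it measured 137, 133, 138 and 138 FPKM, and with gefitinib 53.7, 55.4, 49.4 and 47.8. With AZ1366 the values were 133, 98.4, 102 and 104, and with both 41.2, 42.3, 35.9 and 36.2. Gefitinib and combination libraries were all far below vehicle, and AZ1366 replicate 1 alone reached the vehicle range. The change of ITGA6 (chromosome 2, 173292314 to 173371181) was -1.39 ± 0.082 with gefitinib (adjusted p = 1.68e-10), -0.33 ± 0.082 with AZ1366 (adjusted p = 0.00291) and -1.79 ± 0.082 with both (adjusted p = 2.16e-12).

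ITGB4, its hemidesmosomal partner, has a long cytoplasmic tail that binds plectin. It measured 75.6, 59.0, 54.6 and 61.4 FPKM with vehicle, 41.5, 41.1, 37.2 and 40.9 with gefitinib, 50.1, 35.0, 38.6 and 40.9 with AZ1366, and 29.9, 31.4, 26.5 and 28.7 with both. Each treated group lay below all vehicle libraries. The change was -0.62 ± 0.099 with gefitinib (adjusted p = 3.62e-05) and -0.60 ± 0.099 with AZ1366 (adjusted p = 0.000133). With both compounds ITGB4 (chromosome 17, 73717516 to 73753899) changed by -1.07 ± 0.099 (adjusted p = 2.25e-08). The ratio of ITGB4 to ITGA6 was 0.459 ± 0.0656 with vehicle, 0.376 ± 0.0156 with AZ1366, 0.781 ± 0.0520 with gefitinib and 0.750 ± 0.0296 with both. The groups with gefitinib thus lay above both groups without it in this ratio. This ratio and those below were chosen after the values were seen and carry no test.

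ITGA3 pairs with ITGB1 and binds laminin-332 outside hemidesmosomes. It measured 177, 145, 136 and 148 FPKM with vehicle, 81.7, 82.2, 69.7 and 71.9 with gefitinib, 132, 87.9, 94.2 and 99.7 with AZ1366, and 59.9, 62.5, 50.9 and 52.9 with both. All treated groups were below vehicle without overlap. ITGA3 (chromosome 17, 48133340 to 48167849) changed by -0.98 ± 0.11 with gefitinib (adjusted p = 5.95e-07), by -0.56 ± 0.11 with AZ1366 (adjusted p = 0.000459) and by -1.41 ± 0.11 with both (adjusted p = 2.11e-09).

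ITGA2, the collagen-binding subunit, fell with gefitinib and was not called with AZ1366. Vehicle libraries measured 115, 116, 116 and 118 FPKM and gefitinib libraries 71.4, 67.6, 61.6 and 54.1. AZ1366 libraries measured 141, 110, 103 and 122, on both sides of the vehicle range, and combination libraries 65.6, 62.9, 58.1 and 60.2. ITGA2 (chromosome 5, 52285156 to 52390609) changed by -0.87 ± 0.088 with gefitinib (adjusted p = 1.69e-07) and by -0.91 ± 0.088 with both (adjusted p = 3.69e-08), and by 0.02 ± 0.088 with AZ1366 (adjusted p = 0.868). After correction for transcript length and GC content the AZ1366 change was called, at 0.16 (adjusted p = 0.00408). The difference between the effects of the 2 compounds was not tested.

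ITGB1, the partner of ITGA2 and ITGA3, fell the least of the 6 with gefitinib and with both compounds. It measured 632, 621, 620.0 and 615 FPKM with vehicle, 543, 548, 525 and 442 with gefitinib, 693, 543, 522 and 570 with AZ1366, and 471, 477, 417 and 430 with both. AZ1366 replicate 1 was above every vehicle library and the other 3 AZ1366 libraries were below them. ITGB1 (chromosome 10, 33189246 to 33247293) changed by -0.28 ± 0.083 with gefitinib (adjusted p = 0.00711) and by -0.47 ± 0.083 with both (adjusted p = 4.92e-05). With AZ1366 it changed by -0.10 ± 0.083 (adjusted p = 0.286), and without AZ1366 replicate 1 by -0.19 (adjusted p = 0.0243).

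Several of these falls were smaller when each library was corrected for trends on transcript length and GC content. With AZ1366 they went to -0.20 for ITGA3, -0.18 for ITGA6, -0.22 for ITGB4, -0.28 for LAMA3 and -0.56 for LAMB3, all still called, and with both compounds to -0.57 for ITGA2, -0.26 for ITGB1 and -0.61 for ITGB4. Transcripts of ITGA2 and LAMA3 are longer than 94.8% and 94.6% of tested loci.

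ITGB6 and ITGAV, which together form a receptor for RGD sequences, moved the other way. ITGB6 measured 32.5, 29.6, 31.0 and 32.7 FPKM with vehicle and 86.9, 89.0, 82.6 and 75.6 with gefitinib. It measured 60.3, 55.7, 53.3 and 59.2 with AZ1366 and 108, 110, 98.7 and 99.97 with both. No 2 of the 4 groups overlapped. Relative to vehicle, mean FPKM of ITGB6 (chromosome 2, 160958233 to 161056590) was 2.65-fold with gefitinib, 1.82-fold with AZ1366 and 3.32-fold with both, or 1.38 ± 0.061, 0.84 ± 0.061 and 1.70 ± 0.061 on the log2 scale (adjusted p = 4.31e-12, 2.95e-08 and 9.34e-14).

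ITGAV, the alpha partner of ITGB6, rose less. Vehicle libraries measured 28.6, 26.5, 27.4 and 27.2 FPKM, gefitinib libraries 43.8, 43.9, 44.4 and 36.0, AZ1366 libraries 41.8, 28.0, 27.4 and 29.5, and combination libraries 50.5, 53.5, 42.0 and 41.8. All gefitinib and combination libraries exceeded vehicle, and of the AZ1366 libraries replicates 1 and 4 did, replicate 1 by far the most. ITGAV (chromosome 2, 187454790 to 187545628) changed by 0.59 ± 0.11 with gefitinib (adjusted p = 0.000184) and by 0.75 ± 0.11 with both (adjusted p = 8.79e-06). With AZ1366 it changed by 0.18 ± 0.11 (adjusted p = 0.172), by 0.04 without AZ1366 replicate 1, and by 0.30 under median-ratio scaling, where it was called (adjusted p = 0.00447).

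The other beta subunits that pair with ITGAV split. ITGB5, which makes a vitronectin receptor, fell from 67.8 ± 3.98 FPKM with vehicle to 35.2 ± 3.08 with gefitinib, 49.6 ± 7.87 with AZ1366 and 27.5 ± 2.41 with the combination (log2 changes -0.93, -0.45 and -1.27, adjusted p = 1.3e-07, 0.000611 and 7.54e-10). ITGB3 rose from 2.15 ± 0.230 FPKM to 4.83 ± 0.385, 3.50 ± 0.200 and 6.81 ± 0.523 (0.89, 0.51 and 1.31 on the log2 scale, adjusted p = 4.79e-09, 1.69e-05 and 1e-11). ITGB8, whose product also binds latent TGF-beta, rose from 2.41 ± 0.221 FPKM to 6.10 ± 0.327, 5.79 ± 0.824 and 8.85 ± 1.06 (1.06, 0.99 and 1.53, adjusted p = 9.78e-09, 2.47e-07 and 2.79e-11). ITGB3 and ITGB8 stayed below 10 FPKM in all libraries, where the added 1 FPKM shrinks a change. Of the summed FPKM of ITGB3, ITGB5, ITGB6 and ITGB8, ITGB6 made up 30.3 ± 0.823% in vehicle, 64.4 ± 0.988% with gefitinib, 49.4 ± 2.60% with AZ1366 and 70.8 ± 0.672% with the combination. ITGB5 went from 65.3 ± 0.718% of this sum with vehicle to 18.6 ± 0.425% with both. ITGB1, the partner of ITGAV and of many other alpha subunits, is left out of this sum. Once ITGB1 was counted, the mean ITGB6 share was 4.33% for vehicle, 8.24% for AZ1366, 13.0% for gefitinib and 17.5% for the combination. The mean ITGB1 share was then 85.7% for vehicle and 75.3% for the combination, so ITGB6 was a minority in every group.

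**Figure D3:**
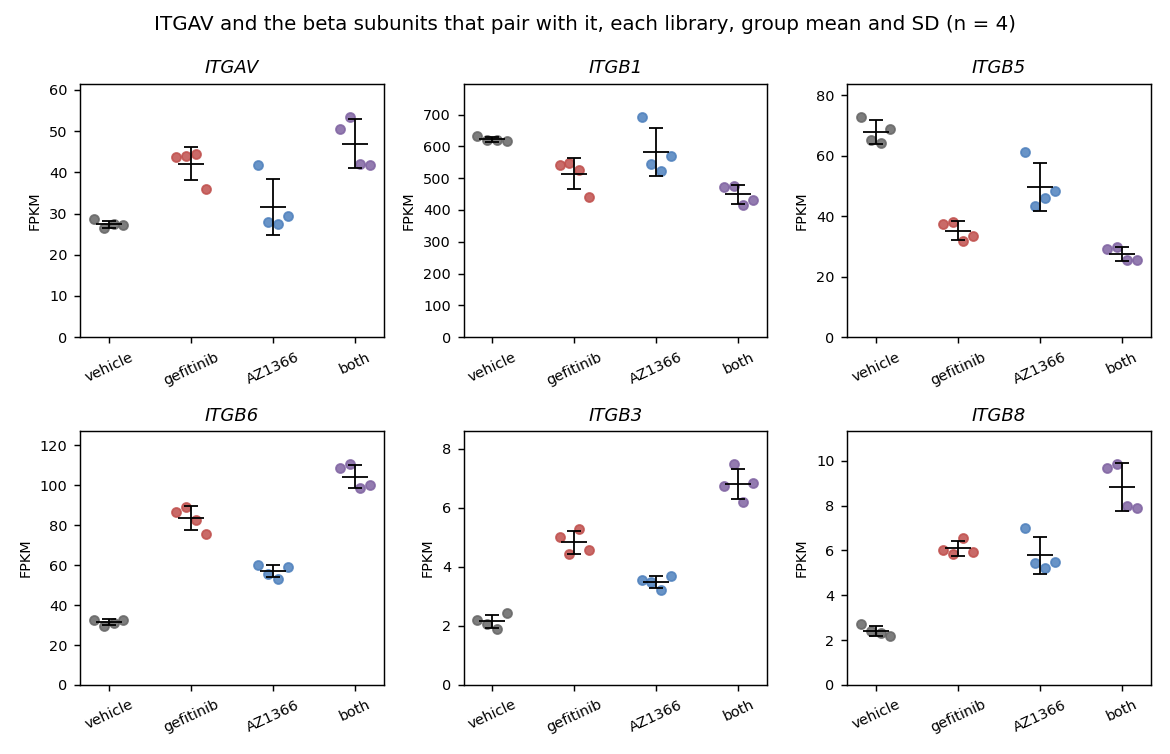
FPKM of ITGAV and of the beta subunit genes whose products pair with it, in each library (points), with group mean and SD (bars, n = 4). ITGB6, ITGB3 and ITGB8 are above vehicle in all treated libraries, ITGB5 is below vehicle in all of them, and ITGB1 is the most abundant throughout.

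Set against each other, the receptor genes changed places. ITGA6 was 4.98 ± 0.120 times ITGAV in FPKM with vehicle, 3.49 ± 0.223 with AZ1366, 1.23 ± 0.0900 with gefitinib and 0.832 ± 0.0356 with both. ITGB6 was 0.0506 ± 0.00235 of ITGB1 with vehicle, 0.0989 ± 0.00793 with AZ1366, 0.163 ± 0.00592 with gefitinib and 0.233 ± 0.00276 with both. No ranges overlapped between groups in either ratio. RNA of a subunit is not its amount on the cell surface, which was not analysed here.

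Adding AZ1366 to gefitinib asks what the tankyrase inhibitor does in cells whose EGFR is already inhibited. Of the 8 genes 4 fell further, 1 rose further and 3 were not called, where 52.5% of tested loci were called (15.3% higher and 37.2% lower). ITGB6 rose by a further 0.32 ± 0.061 (adjusted p = 0.000467). ITGB4 changed by -0.45 ± 0.099 (adjusted p = 0.00146), ITGA3 by -0.43 ± 0.11 (adjusted p = 0.00399), ITGA6 by -0.40 ± 0.082 (adjusted p = 0.000881) and the LAMB3 locus by -0.37 ± 0.091 (adjusted p = 0.00327). LAMA3 changed by -0.38 ± 0.16 with adjusted p = 0.0466, and its ranges overlapped. That call was lost in 14 of 26 alternatives, among them 10 of those that leave out 1 library (adjusted p up to 0.344). ITGA2 (-0.04, adjusted p = 0.728), ITGAV (0.15, adjusted p = 0.263) and ITGB1 (-0.19, adjusted p = 0.0588) were not called. For ITGB1, 7 of 26 alternatives called a fall, and 3 of these leave out 1 library. Another takes the replicate number as a block over all libraries (-0.19, adjusted p = 0.0287), though no label pairs the libraries. After the correction for length and GC content ITGA2 was called in the other direction (0.21), ITGAV was called (0.37), ITGB6 went to 0.51, and ITGB4, ITGA3, ITGA6 and the LAMB3 locus shrank to -0.19, -0.18, -0.18 and -0.19.

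Adding gefitinib to AZ1366 changed all 8 genes in the directions seen with gefitinib alone, 6 lower and 2 higher, where 62.6% of tested loci were called (26.9% higher and 35.7% lower). The changes ran from -1.46 ± 0.082 for ITGA6 (adjusted p = 9.72e-11) to 0.86 ± 0.061 for ITGB6 (adjusted p = 1.65e-09). ITGA2 (-0.93), ITGA3 (-0.85), LAMA3 (-0.79), ITGB4 (-0.47) and ITGB1 (-0.37) lay between them, with ITGAV at 0.57, where the ranges overlapped through AZ1366 replicate 1. The LAMB3 locus changed by -0.68 ± 0.091 (adjusted p = 4.28e-06).

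The interaction is the gefitinib effect in the presence of AZ1366 minus that in its absence. ITGB6 was the only one of the 8 genes called, at -0.52 ± 0.086 (adjusted p = 0.00562), where 1.82% of tested loci were called (0.326% higher and 1.49% lower). These 212 loci (38 higher and 174 lower) became 513 (255 and 258) without AZ1366 replicate 1 and 101 (18 and 83) without vehicle replicate 4. Both gefitinib effects on ITGB6 were rises, 1.38 without AZ1366 and 0.86 with it, so the level with both compounds was below the sum of the single changes on the log2 scale. The value stayed between -0.63 and -0.44 and was called in all 25 alternatives without a minimum change. ITGB8 gave -0.52 ± 0.12 (adjusted p = 0.0337), and 9 of its 25 alternatives did not call it (adjusted p up to 0.082). For the other 7 genes the interaction ran from -0.09 (ITGB1) to 0.15 (ITGB4) with SE of 0.12 to 0.22, and was not called. The LAMB3 locus gave 0.48 ± 0.13 (adjusted p = 0.0662), and 6 of its 25 alternatives called it, including the one without AZ1366 replicate 1 (0.57, adjusted p = 0.0109).

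**Figure D4:**
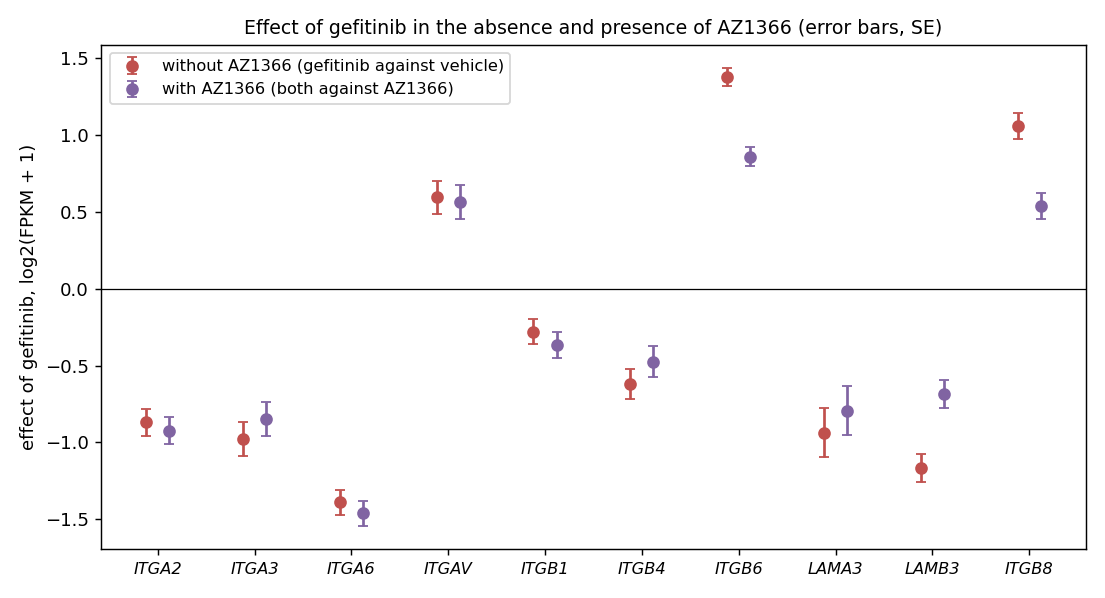
Effect of gefitinib on each gene in log2(FPKM + 1) without AZ1366 (gefitinib against vehicle) and with AZ1366 (both against AZ1366), with bars of 1 SE. The pairs of points lie close together for ITGA2, ITGA3, ITGA6, ITGAV, ITGB1, ITGB4 and LAMA3, and apart for ITGB6, ITGB8 and the LAMB3 locus.

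Of the other alpha subunit genes, 4 of 14 were tested: 3 fell and 1, ITGA4, rose with gefitinib, and 3 fell with AZ1366. Over all tested loci 36.9% were called lower and 27.7% higher with gefitinib, and 39.8% and 18.6% with AZ1366. ITGA5, the fibronectin receptor subunit, went from 24.9 ± 2.66 FPKM with vehicle to 15.7 ± 0.669 with gefitinib (log2 change -0.63, adjusted p = 1.55e-05) and 14.1 ± 1.36 with both (-0.78, adjusted p = 6.14e-07), and with AZ1366 it was 21.9 ± 3.51 (-0.18, adjusted p = 0.0974, and 0.15 after the correction for length and GC content, a call with adjusted p = 0.00109). Of the other laminin chains, 6 of 10 were tested, beside the same shares over all tested loci and 49.4% lower and 29.9% higher with both. With gefitinib 5 fell and LAMB2 rose (0.48, adjusted p = 0.000682), with AZ1366 5 fell, among them LAMB2 (-0.30, adjusted p = 0.0219, and 0.064 after the same correction), and with both 5 fell and LAMB2 rose (0.39, adjusted p = 0.00256). LAMB1, a chain found in many basement membranes, changed by -0.78, -0.76 and -1.37 with gefitinib, AZ1366 and both (adjusted p = 2.62e-05, 9.62e-05 and 1.18e-08).

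Among genes of the hemidesmosome and basement membrane, 13 of 15 were tested. With gefitinib 10 fell and 2 rose, with AZ1366 12 fell, and with both 11 fell and 1 rose, where 36.9%, 39.8% and 49.4% of all tested loci were called lower. Their median changes were -0.35, -0.61 and -0.74. PLEC, which encodes plectin, the link from ITGB4 to keratin, went from 49.7 ± 6.36 FPKM to 25.0 ± 2.46 with gefitinib, 27.6 ± 8.25 with AZ1366 and 15.97 ± 2.04 with the combination (-0.96, -0.86 and -1.58, adjusted p = 1.6e-05, 0.000135 and 1.64e-08). CD151, the tetraspanin that accompanies the ITGA3 and ITGA6 receptors, was 1 of the 2 that rose with gefitinib (0.17, adjusted p = 0.0184) and the 1 that rose with both (0.23, adjusted p = 0.00167). COL4A1, a type IV collagen chain, changed by -1.08 with AZ1366 (adjusted p = 2.19e-05) and by -0.46 with gefitinib (adjusted p = 0.0106), and the difference between the 2 was not tested. Over all tested loci these comparisons had medians of -0.056, -0.10 and -0.15.

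Of the other integrin ligands, 11 of 17 were tested. With gefitinib 6 fell and 2 rose, with AZ1366 6 fell, and with both 7 fell and 2 rose, where 64.6%, 58.4% and 79.3% of all tested loci were called. TNC, the tenascin-C gene, fell by 1.19, 0.54 and 1.61 on the log2 scale (adjusted p = 1.44e-06, 0.00394 and 1.27e-08). EDIL3, which encodes a secreted protein bound by ITGAV receptors, rose from 14.2 ± 0.914 FPKM to 30.2 ± 3.71 with gefitinib and 29.1 ± 3.04 with both (1.03 and 0.98, adjusted p = 3.24e-07 and 2.39e-07). Of 29 genes of integrin tail adaptors and focal adhesions, 27 were tested. Of these 14 fell and 8 rose with gefitinib, 16 fell and 1 rose with AZ1366, and 16 fell and 6 rose with both, beside the same 64.6%, 58.4% and 79.3% over all tested loci. TNS4, a tensin that binds beta tails, fell from 32.5 ± 3.46 to 10.4 ± 0.391 FPKM with gefitinib and 7.05 ± 0.392 with both (-1.54 and -2.05, adjusted p = 4.27e-11 and 3.51e-13), and FERMT1, the epithelial kindlin, changed by -0.85 with gefitinib and -1.29 with both (adjusted p = 3.22e-07 and 4.77e-10).

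Of the latent TGF-beta list, which holds the TGF-beta genes, their latency binding proteins and genes they induce, 8 of 9 were tested. With gefitinib 2 rose and 3 fell, with AZ1366 5 fell, and with both 1 rose and 5 fell, shares near the 64.6%, 58.4% and 79.3% called over all tested loci. TGFB2, whose latency peptide lacks the RGD sequence by which ITGB6 and ITGB8 receptors bind that of TGFB1, went from 16.7 ± 0.504 FPKM with vehicle to 42.1 ± 3.05 with gefitinib, 10.8 ± 2.45 with AZ1366 and 23.4 ± 2.39 with the combination (1.28, -0.61 and 0.45, adjusted p = 1e-08, 0.000152 and 0.000617). TGFB1 changed by -0.26 with gefitinib (adjusted p = 0.0109) and -0.21 with both (adjusted p = 0.0264, and 0.052 after the length and GC correction), and by -0.14 with AZ1366 (adjusted p = 0.156), which the correction turned to a called rise of 0.14 (adjusted p = 0.00664). Of 5 genes of proteases that process laminin-332, 3 were tested. With AZ1366 2 fell and with the combination 2 fell, where 39.8% and 49.4% of all tested loci were called lower. The MMP2 change with the combination turned to 0.022 after the length and GC correction (adjusted p = 0.761).

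**Figure D5:**
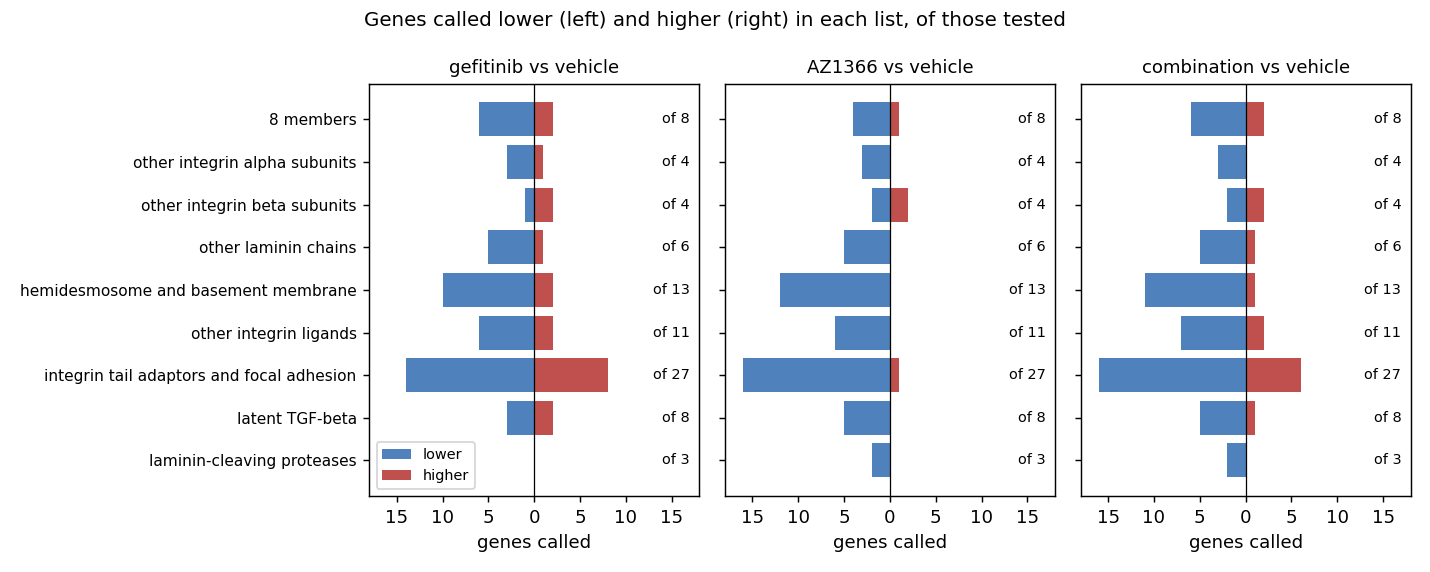
Number of genes called lower (left of 0) and higher (right of 0) in each gene list against vehicle, with the number tested at the right of each bar. Falls outnumber rises in 6 of the 8 pathway lists with gefitinib, and the exceptions are the other beta subunits and the proteases. Falls also outnumber rises over all tested loci in that comparison (4295 and 3226).

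The tested loci whose profile over the 16 libraries was nearest to a gene, by the root mean square difference of centred log2(FPKM + 1), were in part genes of the same system. ITGB5 was the second nearest to ITGA3 (0.0671, after DPP9 at 0.067) and PXN, the paxillin gene, was the second nearest to ITGB4 (0.0563, after ARHGEF1 at 0.0553). ITGB6 was nearest to GFPT2 (0.0883) and ITGA6 to ANO1 (0.0829). ITGA2 was nearest to ST3GAL1 (0.0732), ITGAV to RFX5 (0.0672), ITGB1 to ACAP2 (0.0407) and the LAMB3 locus to MYBBP1A (0.075). A small change gives a small distance, so the values are not compared between genes.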

How the data were processed

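PolyA RNA of 16 HCC4006 libraries was measured in 4 groups of 4, taken from the sample titles. The deposited values are FPKM per locus. The genome was hg19 and the tools were Cufflinks 1.3.0, Cuffdiff and TopHat 1.4.1, per the submitters' processing notes, without their roles; the annotation and strand handling are not given in the sources used here. Depth is unknown, since low values showed no whole-read steps (at most 9.42% of ratios in 1 bin). Coordinates are the file's hg19 loci.

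log2(FPKM + 1) was fitted with limma 3.58.1 in R 4.3.3 (4 groups, mean-variance trend, 12 residual degrees of freedom), for 11647 loci with a mean of at least 1 FPKM. P-values were two-sided, adjusted by Benjamini-Hochberg over these loci, threshold 0.05. The method was tested on simulated data.

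The genes and lists were chosen with earlier results of these data known. Named besides the members were the 2 nearest loci, up to 4 called loci with the largest changes per list, and ITGB5 and ITGA5; the text prints part of these, and some genes that the rule gave are not reported here. Alternatives were a pseudocount of 0.1, no filter, a minimum mean of 5 FPKM, quantile normalization, median-ratio scaling, a length and GC correction (5 spline terms, 11536 loci), no trend, only the libraries compared, a replicate block, a minimum change of 1, and leaving out each library; 1 more, without vehicle and AZ1366 replicate 1 together, was chosen after seeing the data. Same-numbered gefitinib and combination libraries deviated together in all 4 pairs (correlations of 0.224 to 0.321). Pairs with other numbers, over all groups, ran from -0.636 to 0.606, so this does not establish a pairing, and no label states one. The block was fitted over all 16 libraries for every comparison. Protein sequences were not analysed here.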

Additional observations from a re-analysis of the deposited data

Results flagged for a closer look

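Within-group outliers were judged by Dixon's gap test, which flags about 1 in 20 groups by chance. AZ1366 replicate 1 was set apart as the highest of its group for ITGA6 (133.4 FPKM) and for ITGAV (41.82 FPKM), and this library also stood apart over all loci. With gefitinib, replicate 4 was the lowest for ITGAV (36.05 FPKM) and replicate 3 the lowest for ITGB4 (37.15 FPKM).

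The effect of gefitinib differed between cells without and with AZ1366, by the interaction term, for ITGB6 (-0.52 on the log2 scale) and ITGB8 (-0.521). The ITGB6 call held in all 25 alternatives without a minimum change, while 9 of 25 did not call ITGB8. In both genes gefitinib raised the level in either setting, and by less with AZ1366.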

How the results depend on the processing

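Under the alternatives other than a minimum change, all 8 genes stayed called in the same direction for gefitinib against vehicle, both compounds against vehicle and both against AZ1366, and ITGB6 for the interaction. A minimum absolute log2 change of 1 left 2 of the 8 called with gefitinib, 0 with AZ1366, 5 with both, 0 for both against gefitinib, 1 for both against AZ1366 and 0 for the interaction, by construction (without it limma called 8, 5, 8, 5, 8 and 1). With AZ1366, quantile normalization called 7 (2 higher and 5 lower), the length and GC correction 7 (3 and 4, with ITGA2 higher, 0.16, adjusted p = 0.00408) and median-ratio scaling 6 (2 and 4). Leaving out each library in turn gave 5 to 6 called with AZ1366, 4 to 6 for both against gefitinib, and the same counts of 8, 8, 8 and 1 elsewhere. Without AZ1366 replicate 1 the ITGAV change with AZ1366 went from 0.18 to 0.04.

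After the length and GC correction the direction turned for ITGA2 (0.21), ITGA5 (0.088), ITGA1 (0.053), ITGAE (0.032), LAMB2 (0.17) and NID1 (0.00878) for both against gefitinib. It turned for ITGA5 (0.15), ITGAE (0.11), LAMB2 (0.064), NID1 (0.014), FBLIM1 (0.16), LTBP3 (0.035) and TGFB1 (0.14) with AZ1366, and for ITGAE (0.029), TNS3 (0.26), TGFB1 (0.052), LTBP4 (0.079) and MMP2 (0.022) with both. Quantile normalization turned FBLIM1 with AZ1366 (0.12). The cause was not tested.

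Scaling moved the split of all called loci. For both against vehicle, 3488 higher and 5753 lower became 4708 and 4691 under median-ratio scaling, for both against gefitinib 1780 and 4338 became 3099 and 3250, and the interaction went from 212 called loci (38 higher and 174 lower) to 620 (274 and 346) under quantile normalization, 419 (125 and 294) under median-ratio scaling and 663 (262 and 401) under the length and GC correction. It was 513 (255 and 258) without AZ1366 replicate 1, and 101 to 139 without vehicle replicates 1 or 4, gefitinib replicates 1, 2 or 3, AZ1366 replicate 4 or any 1 of the combination libraries.

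Deviations of same-numbered libraries from their group means correlated above 0.1 in 16 of 24 pairs (from -0.447 to 0.539), and in all 4 pairs only between gefitinib and the combination. Pairs of libraries with other numbers ran from -0.636 to 0.606. Of 16 libraries, 2 were closest to their own number in all other groups. With the replicate number as a block the counts of the 8 genes were 8, 5, 8, 6, 8 and 1, ITGB1 being the gene added for both against gefitinib (-0.19, adjusted p = 0.0287), and the LAMB3 locus was called for the interaction (0.48, adjusted p = 0.0122). The depth behind the FPKM is unknown and limits what can be said of low genes such as ITGB3 and ITGB8.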
